A study of Mus musculus with 4 samples.

Results

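The 6 genes followed here encode anti-Müllerian hormone (Amh), its type II receptor (Amhr2), the inhibin alpha, beta A and beta B subunits (Inha, Inhba and Inhbb) and the receptor for follicle-stimulating hormone (Fshr). They were chosen by name, and each was matched to 1 gene symbol of the deposited tables, so that they are 6 of 32285 genes. Single-cell RNA sequencing of 2 libraries of testicular organoids (TOs) and 2 libraries of mouse testes gave their transcript counts. TOs had been rebuilt from dissociated testis cells of newborn, 6-day-old ICR mice, embedded in basement membrane extract and cultured in medium with FSH and testosterone. The testes came from mice of 28 days. The design text gives 28 days for the TOs as well, while the protocol text of the labels names day 21, and which of these ages holds for the libraries was not settled. Cells were unsorted in both groups. By the study's methods the TO libraries came from separate batches and the testes were biological replicates, while no label says which batch or animal a library holds.

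In the testis, Sertoli cells release AMH and inhibin B. AMH binds AMHR2, a receptor kinase that signals through the SMAD proteins shared with bone morphogenetic proteins. Inhibins are dimers of the alpha subunit with a beta subunit, whereas dimers of beta subunits alone are activins, which signal through activin receptors, and the alpha subunit thus turns an activin subunit toward inhibin. FSH reaches Sertoli cells through FSHR, a receptor coupled to G proteins that raises cAMP. Amh is known to be high in immature Sertoli cells and to decline at puberty, when the receptors for FSH and androgen are in use. The comparison of TOs with testes asks how far these genes differed between the cultured and the native tissue, cell type by cell type.

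In the GENCODE annotation of GRCm38, Amh lies at chr10:80805243-80807648 on the plus strand, Amhr2 at chr15:102445367-102454633 (plus), Inha at chr1:75507077-75510366 (plus), Inhba at chr13:16011851-16031621 (plus), Inhbb at chr1:119415465-119422248 (minus) and Fshr at chr17:88984952-89200675 (minus). All 6 are protein-coding. Inhba overlaps 2 genes on the opposite strand. Of these, Gm48444 had 8 UMIs (unique molecular identifiers, each standing for 1 captured transcript) over all cells against 4693 of Inhba, and B230303A05Rik had no entry in the tables used here.

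The promoters of 4 genes are shown because these genes had the patterns described below: Fshr, Amhr2 and Inhbb, whose levels among the tested cell types were highest in Sertoli-like cells of each library, and Inhba, whose level was not. The RefSeq start of Inha matched no GENCODE start, and its window is not shown. Each sequence holds the 250 bases before the RefSeq start of the gene in GRCm38.p6, read 5′ to 3′ on the strand of the gene, at chr17:89200676-89200925 (minus strand) for Fshr, chr15:102445117-102445366 (plus strand) for Amhr2, chr1:119422249-119422498 (minus strand) for Inhbb and chr13:16011601-16011850 (plus strand) for Inhba. Capitals mark matches to 4 motifs, each searched on both strands: the E-box CACGTG, the nuclear receptor site AGGTCA, the cAMP response element TGACGTCA and the GATA site AGATAA. These letters do not overlap one another in the 4 windows.
Fshr: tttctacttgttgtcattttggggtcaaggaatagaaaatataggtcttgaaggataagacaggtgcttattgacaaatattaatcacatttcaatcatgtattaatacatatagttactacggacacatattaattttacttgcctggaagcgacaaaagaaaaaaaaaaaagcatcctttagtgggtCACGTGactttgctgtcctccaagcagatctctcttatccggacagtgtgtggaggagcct
Amhr2: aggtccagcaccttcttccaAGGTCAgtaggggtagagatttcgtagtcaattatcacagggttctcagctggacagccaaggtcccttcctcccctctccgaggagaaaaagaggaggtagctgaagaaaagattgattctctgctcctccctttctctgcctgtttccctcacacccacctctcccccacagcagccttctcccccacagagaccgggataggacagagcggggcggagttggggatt
Inhbb: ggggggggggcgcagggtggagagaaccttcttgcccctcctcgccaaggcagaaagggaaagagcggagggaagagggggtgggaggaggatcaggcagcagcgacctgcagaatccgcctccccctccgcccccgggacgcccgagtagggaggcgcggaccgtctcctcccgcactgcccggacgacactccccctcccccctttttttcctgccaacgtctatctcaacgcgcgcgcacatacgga
Inhba: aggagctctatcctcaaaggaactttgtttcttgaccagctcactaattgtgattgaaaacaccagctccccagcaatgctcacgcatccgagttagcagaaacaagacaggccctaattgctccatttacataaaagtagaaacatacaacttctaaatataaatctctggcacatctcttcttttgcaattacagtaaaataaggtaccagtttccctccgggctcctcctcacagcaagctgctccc
The Fshr window held 1 E-box, 61 to 56 bases before the start, and the Amhr2 window held 1 nuclear receptor site, 230 to 225 bases before the start. Of 32851 promoters of this length in the RefSeq table, 6.02% held the E-box, 14.0% the nuclear receptor site, 1.55% the cAMP response element and 9.99% the GATA site. The Inhbb and Inhba windows held none of the 4 motifs, which says only that these letters are not in these bases. Of the 3 genes highest in Sertoli-like cells shown here, then, 1 had an E-box, 1 a nuclear receptor site and 1 no match.

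The 4 libraries held 11826 to 14643 barcodes and 74988295 to 119966959 UMIs, and 8713 to 9867 cells per library were kept. Between 30 and 55 barcodes were shared by each pair of libraries, at most 0.44% of the smaller one. Cells were clustered without the 6 genes, and clusters were named from markers that do not include them. All 8 Sertoli markers were detected in Sertoli-like cells of each library, 1519 and 735 cells in TOs and 467 and 245 in testes. Cluster 23 held 14.9% and 13.5% of the Sertoli-like cells of TOs (227 and 99 cells) and no cell of the testes. There are also 2 features of single libraries that bear on what follows. Of the Sertoli-like cells of testis replicate 2, 103 and 102 formed clusters 29 and 30, which held no cell of another library, whereas 67.7% of those of testis replicate 1 and 65.6% and 67.8% of those of the TOs were in cluster 6. In TO replicate 1, transcripts of Sertoli markers were also more abundant in other cell types than in TO replicate 2. Their sum was 662 and 264 CPM (UMIs per 1000000 UMIs of the cell type in the library) in macrophage-like cells of TO replicates 1 and 2, and 166 and 106 CPM in those of the testes. Conversely, 8 spermatid transcripts added up to 4258 and 12050 CPM in Sertoli-like cells of the testes and to 50.7 and 29.3 CPM in those of the TOs.

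Among the 7 tested cell types, 4 of the 6 genes were highest in Sertoli-like cells in all 4 libraries. The levels below are in CPM of the cell type in a library. Amh averaged 2.82 CPM in Sertoli-like cells of TOs and 13.4 CPM in those of testes, with no other tested type above 1.39 CPM in any library. Amhr2 averaged 758 and 1115 CPM in Sertoli-like cells, followed among the tested types by Leydig-like cells at 164 and 197 CPM, and these ranges did not overlap. The cells of the cluster named endothelial, which were not tested, had 334 and 322 CPM of Amhr2 in TOs, above the Leydig-like cells of TOs. Fshr was 52.0 times higher in Sertoli-like cells than in the next type in TOs and 65.4 times higher in testes, and Inhbb 12.5 and 18.7 times higher. Below the leading types, the order could not be told: Fshr averaged 1.00 to 2.24 CPM in the 6 other tested types of TOs, and neighbours in this order overlapped between libraries except for Leydig-like cells, the lowest.

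**Figure D1:**
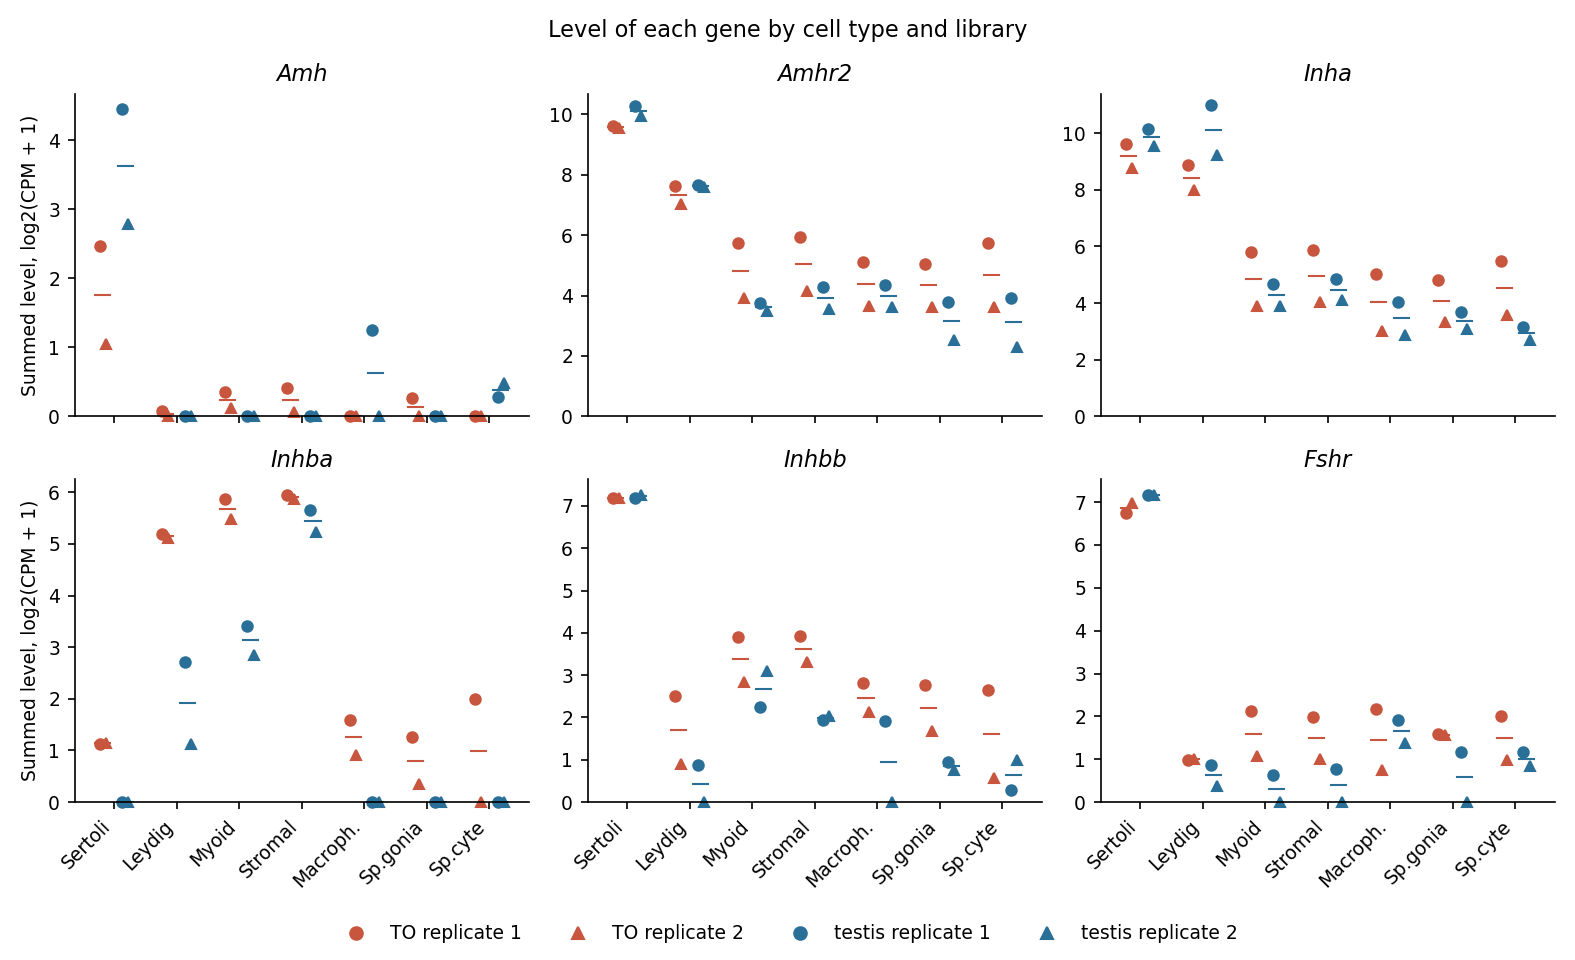
Level of each gene in 7 cell types as log2(CPM + 1), with circles for replicate 1, triangles for replicate 2, TOs in red, testes in blue and a bar at the mean of the 2 libraries. Amh, Amhr2, Inhbb and Fshr stood highest in Sertoli-like cells in all 4 libraries, Inha in Sertoli-like and Leydig-like cells, and Inhba in stromal-like cells.

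Inha and Inhba had other leading cell types. Inha was high in Sertoli-like cells (613 CPM on average in TOs, 940 CPM in testes) and in Leydig-like cells (360 and 1317 CPM), the androgen-producing cells between the tubules. The ranges of both types overlapped in TOs and in testes, and the highest value of any library, 2029 CPM, was that of Leydig-like cells of testis replicate 1. Inhba was led by stromal-like cells (59.2 CPM in TOs, 42.8 CPM in testes), peritubular myoid-like cells (50.3 and 7.94 CPM) and Leydig-like cells (34.6 and 3.37 CPM). It was nearly absent from Sertoli-like cells, where Inhbb was the beta subunit detected.

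Amh was lower in Sertoli-like cells of both TO libraries than in those of both testis libraries, but few transcripts lay behind this. TO replicates 1 and 2 had 4.56 and 1.07 CPM (65 and 8 UMIs), and testis replicates 1 and 2 had 21.0 and 5.92 CPM (54 and 8 UMIs). The groups did not overlap, yet the lower testis library was only slightly above the higher TO library. The log2 fold change of TOs over testes was -2.18 (SE 0.718, n = 2 libraries against 2), with an adjusted p of 0.040 in edgeR's quasi-likelihood test. The threshold of an adjusted p below 0.01 with an absolute log2 fold change above 1 was not passed. Without testis replicate 1 the fold change was -0.94 (adjusted p = 0.48), and without TO replicate 1 it was -3.57 with an adjusted p of 0.0011, which passed. Summed over libraries, the ratio of TOs to testes was 0.213 (95% counting interval 0.150 to 0.304), an interval that covers counting error only.

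At 3000 UMIs per cell, to which each cell was thinned, an Amh transcript was seen in few Sertoli-like cells of any library. This depth left out 168 of 1519 and 109 of 735 Sertoli-like cells of TOs, and 137 of 467 and 116 of 245 of those of testes. The shares were 1.26% (17 of 1351 cells) and 0.479% (3 of 626) in TOs, and 6.67% (22 of 330) and 1.55% (2 of 129) in testes. In macrophage-like cells, which should lack Amh, 0 cells of each library had a transcript at this depth. The difference of the means was -3.24 percentage points, and the exact two-sided permutation test gave p = 0.33, the smallest p that 2 libraries against 2 can give. At 1500 UMIs per cell, the shares were 0.801% and 0.138% in TOs and 2.57% and 0.816% in testes, again without overlap. TO replicate 1 and testis replicate 2 (2 of 245 cells) were nearly equal there. Before thinning, 62 of 1519 and 8 of 735 cells of the TOs carried Amh. In the testes, 49 of 467 and 8 of 245 cells did, and the most in a cell was 2 transcripts. TO replicate 1 (4.08%, median depth 10074 UMIs) was then above testis replicate 2 (3.27%, median depth 3218 UMIs). The groups thus overlapped without thinning, and the separation of the Amh shares held only at the 2 thinned depths.

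Amhr2, the receptor of AMH, was abundant in Sertoli-like cells of both groups. Its levels were 780 and 736 CPM in TOs (758 ± 30.7, SD, n = 2) and 1245 and 985 CPM in testes (1115 ± 184). Both testis libraries lay above both TO libraries, but the log2 fold change of -0.47 (SE 0.184) had an adjusted p of 0.071 in edgeR. Among cells at 3000 UMIs, 84.4% and 84.8% in TOs and 97.3% and 87.6% in testes had an Amhr2 transcript. At 1500 UMIs, a depth that kept all Sertoli-like cells of testes, they were 60.3% and 60.6% in TOs and 69.2% and 54.3% in testes, and the groups overlapped. In macrophage-like cells the shares were 11.3% and 3.70% in TOs and 3.25% and 1.92% in testes, so that the shares in Sertoli-like cells were far above this background. Median depths before thinning were 3218 to 11340 UMIs in Sertoli-like and 3069.5 to 6326.5 UMIs in macrophage-like cells. In Leydig-like cells, Amhr2 stood at 197 and 131 CPM in TOs and 203 and 191 CPM in testes (log2 fold change -0.34, SE 0.280, adjusted p = 0.42 in edgeR).

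Fshr was detected in Sertoli-like cells of TOs at 0.811 times the mean level of testes. The 4 libraries had 107 and 126 CPM in TOs (116 ± 13.7, SD, n = 2) and 143 and 144 CPM in testes (143 ± 0.120). Both TO libraries were below the testes, by a log2 fold change of -0.21 (SE 0.170) that did not pass the test (adjusted p = 0.34, edgeR). The share of Sertoli-like cells with an Fshr transcript depended on depth. At 3000 UMIs, TO libraries had 24.1% and 27.2% and testis libraries 35.2% and 34.9%. At 1500 UMIs, TO libraries had 13.3% and 15.6% and testis libraries 15.8% and 12.7%, so that the groups overlapped. Without thinning, TO libraries had 51.2% and 54.6% and testis libraries 46.3% and 33.5%, the reverse order of that at 3000 UMIs. Median depths were then 10074 and 11340 UMIs in TOs and 6124 and 3218 UMIs in testes. In testes, cluster 20 held 27.6% of Sertoli-like cells of replicate 1 (median 1848 UMIs) and cluster 30 held 41.6% of those of replicate 2 (median 1991 UMIs). Fshr there was 3.7 and 4.5 CPM (1 UMI each), against 155 and 180 CPM in clusters 6 and 29 of the same libraries. The part of these shallow clusters in the shares was not tested. No order of the groups in the share of cells with Fshr thus held over the depths tried. The same was true of Amhr2, Inha and Inhbb, whose mean shares in Sertoli-like cells were 7.83, 12.9 and 4.13 percentage points lower in TOs at 3000 UMIs and 14.6, 16.6 and 19.1 points higher without thinning. At 1500 UMIs, Amhr2 and Inha were 1.31 and 2.71 points lower in TOs with overlapping groups, and Inhbb was 3.27 points higher. The permutation p was 0.33 at 3000 UMIs. Macrophage-like cells, which should lack the receptor, had shares from 0 of 104 cells (which allows up to 2.88%) to 1.63%. Within Sertoli-like cells, the small cluster 27 of shallow cells had the highest Fshr levels, 272 and 457 CPM in TOs and 358 and 285 CPM in testes.

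Cells with both Amh and Fshr, with 1 of them or with neither were counted, since high Amh with low Fshr is taken as a mark of immature Sertoli cells and the reverse as a mark of mature ones. At 3000 UMIs, cells with Fshr alone made up 23.8% and 27.0% of Sertoli-like cells in TOs and 33.0% and 34.9% in testes. Cells with Amh alone made up 1.04% and 0.319% in TOs and 4.55% and 1.55% in testes, and cells with both 0.222% (3 cells) and 0.160% (1 cell) in TOs and 2.12% (7 cells) and 0% (0 of 129 cells, which allows up to 2.33%) in testes. In each library, then, Sertoli-like cells with Fshr alone outnumbered those with Amh, as they did at 1500 UMIs. In these cells Fshr was at 107 to 144 CPM and Amh at 1.07 to 21.0 CPM. Levels so far apart give this order by themselves, so that it cannot tell mature from immature cells. Cells with neither were 74.9% and 72.5% in TOs and 60.3% and 63.6% in testes. At 1500 UMIs, TO libraries had 13.2% and 15.6% of cells with Fshr alone and testis libraries 15.6% and 12.7%. Cells with neither were 86.05% and 84.3% in TO libraries and 81.8% and 86.5% in testis libraries at that depth, so that the groups no longer separated for these classes. Without thinning, Fshr alone was 49.2% and 53.9% in TO libraries and 39.2% and 30.6% in testis libraries, the reverse order. Cells with both then numbered 30 and 5 in TOs and 33 and 7 in testes. Those with Amh alone numbered 32 and 3 in TOs and 16 and 1 in testes. The size of each class thus depended on depth. At 3000 UMIs, the 4 differences had permutation p-values of 0.33 (Amh alone, Fshr alone and neither) and 1.0 (both).

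**Figure D2:**
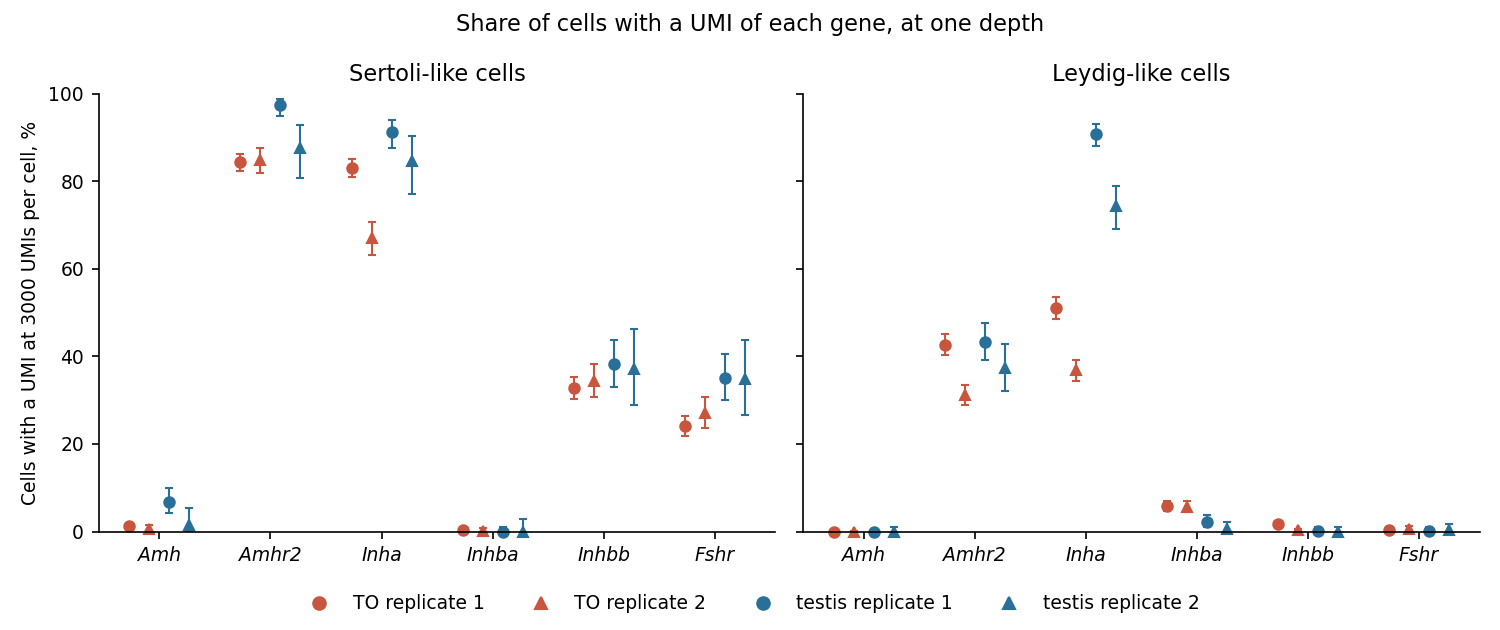
Percentage of Sertoli-like (left) and Leydig-like (right) cells with at least 1 UMI of each gene after each cell was thinned to 3000 UMIs, per library, with exact 95% binomial intervals that cover counting error only. Fshr was in 24.1% and 27.2% of Sertoli-like cells of TOs and 35.2% and 34.9% of those of testes, a separation that was absent at 1500 UMIs (13.3% and 15.6% against 15.8% and 12.7%), and Inha in 51.0% and 36.8% of Leydig-like cells of TOs and 90.7% and 74.2% of those of testes.

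Inhbb, the beta subunit of inhibin B, differed between the groups by less than the spread between testis libraries in Sertoli-like cells. The libraries had 144 and 146 CPM in TOs (145 ± 1.27, SD, n = 2) and 144 and 153 CPM in testes (149 ± 6.37), and these ranges overlapped. The ratio of the sums was 0.982 (95% counting interval 0.898 to 1.07). Its log2 fold change was 0.05 (SE 0.150, adjusted p = 0.80, edgeR), and the sign turned under other scalings, for example to -0.26 with spermatid genes left out of the library sizes. Inha, the alpha subunit, had 789 and 438 CPM in TOs and 1132 and 749 CPM in testes, and again the groups overlapped (log2 fold change -0.54, SE 0.301, adjusted p = 0.18). At 3000 UMIs, 83.0% and 66.9% of Sertoli-like cells of TOs and 91.2% and 84.5% of those of testes had an Inha transcript, and at 1500 UMIs 60.8% and 45.8% against 65.1% and 46.9%. Inhba was listed with 17 and 9 UMIs (1.19 and 1.21 CPM) in Sertoli-like cells of TOs and with 0 in both testes. A floor of 3 counts over both testis libraries would put it 1.57-fold lower there, leaving out the counting error of the TO UMIs. Macrophage-like cells had 2.02 and 0.895 CPM of Inhba in TOs and 0 in both testes, so the values in Sertoli-like cells were not above this background. Inhba was too low to be tested in Sertoli-like cells.

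None of the 5 tested genes passed the threshold in Sertoli-like cells, where 29.7% of all 14500 tested genes passed it (9.06% higher and 20.7% lower in TOs). The median log2 fold change over all genes was 0.02, and it moved to -0.31 with library sizes that leave out spermatid genes, where Amhr2, Inha and Fshr moved to -0.79, -0.86 and -0.53 and did not pass either. With the split of calls, 30.5% of the called genes were higher in TOs in the main analysis and 17.7% with spermatid genes left out. Restricting Sertoli-like cells to cluster 6, chosen after seeing the data, left 30 cells of testis replicate 2 and gave log2 fold changes of 0.03 for Amhr2 and 0.18 for Fshr (adjusted p = 0.99 and 0.85). These 30 cells were shallow (median 2592 UMIs) and had 275 CPM of Amhr2 and 50.9 CPM of Fshr, against 1359 and 155 CPM in testis replicate 1 in the same cluster. The 103 cells of testis replicate 2 in cluster 29 (median 9913 UMIs) had 1200 CPM of Amhr2 and 180 CPM of Fshr, and the TOs in cluster 6 had 856 and 825 CPM of Amhr2 and 118 and 141 CPM of Fshr. Cluster 23, without testis cells, had 494 and 371 CPM of Amhr2 and 46.5 and 61.8 CPM of Fshr in TOs. Its part in the levels of all Sertoli-like cells of TOs was not tested.

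**Figure D3:**
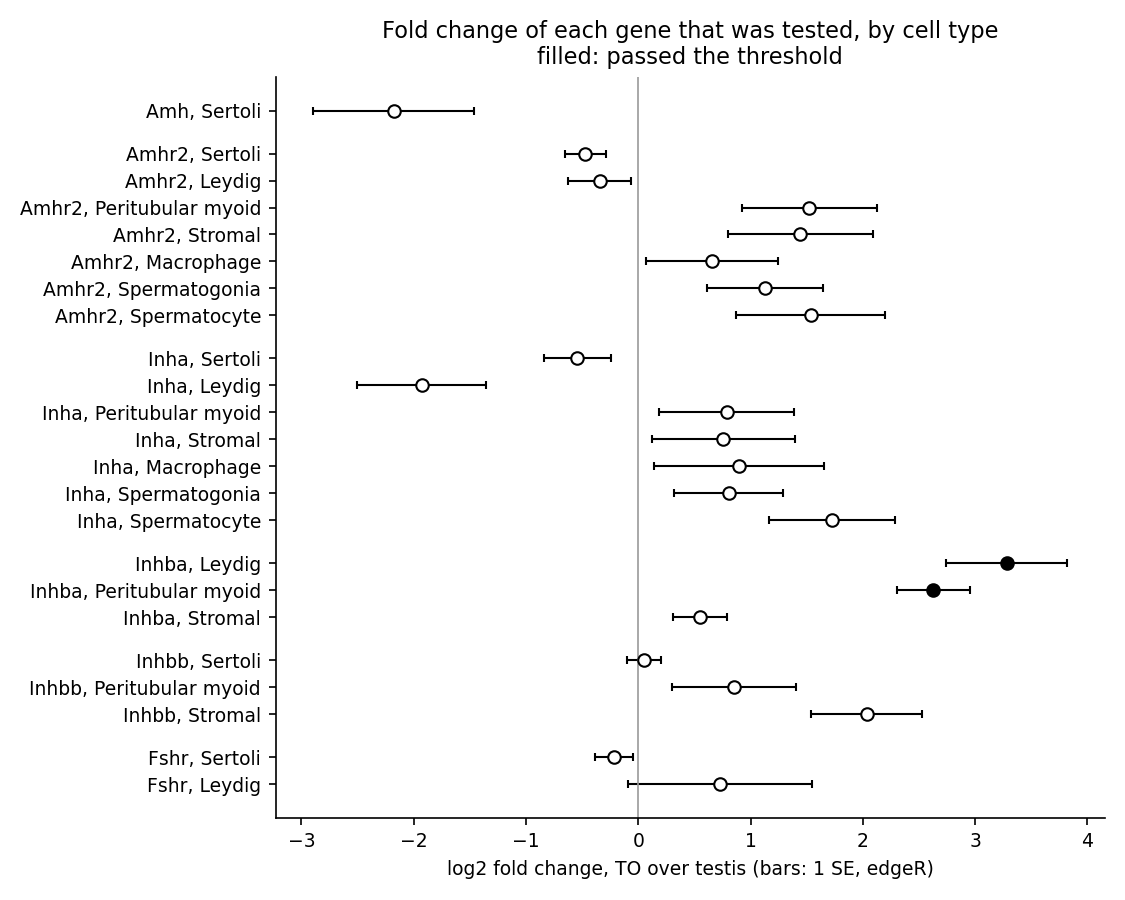
Log2 fold change of TOs over testes (edgeR) for each gene in each cell type in which it could be tested, with bars of 1 SE and filled points for values past the threshold. Only Inhba in Leydig-like (3.28) and peritubular myoid-like cells (2.63) was past it.

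Inhba was higher in Leydig-like cells of both TO libraries. The values were 35.7 and 33.6 CPM in TOs (651 and 629 UMIs) and 5.56 and 1.18 CPM in testes (20 and 4 UMIs), so both TO libraries lay well above both testis libraries. The log2 fold change was 3.28 (SE 0.539) with an adjusted p of 0.0043 in edgeR, and Inhba was 1 of 4 genes tested that passed the threshold, where 14.2% of all genes did, 2.05% higher and 12.2% lower in TOs. The ratio of the sums was 10.1 (95% counting interval 6.75 to 15.8). Leydig-like cells of TOs were 1701 and 1559 cells, and those of testes 568 and 341 cells. At 3000 UMIs, 5.81% and 5.60% of them had an Inhba transcript in TOs and 2.15% and 0.614% in testes, against 0.778%, 0.296%, 0% and 0% of macrophage-like cells. The call was lost in 5 of 17 alternatives, with adjusted p-values from 0.014 to 0.13, and leaving out any 1 library kept it (log2 fold change 2.60 to 4.82).

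Most Inhba transcripts of Leydig-like cells of TOs came from 1 cluster. Cluster 13, led by Eya1 and Adh1 and without a Leydig marker among its 10 leading genes, held 17.3% and 21.4% of the Leydig-like cells of TOs and 69.3% and 78.4% of their Inhba UMIs. It stood at 173 and 126 CPM of Inhba in TOs, and had 1 UMI in each testis library (57 and 24 cells). In cluster 2, led by Cyp17a1 and Insl3, Inhba was 12.8 and 9.26 CPM in TOs and 5.76 and 0.924 CPM in testes. With cluster 2 alone, chosen after seeing the data, the log2 fold change was 1.66 (adjusted p = 0.13, edgeR), which did not pass. Transcripts of the 5 stromal markers, whose cells lead in Inhba, added up to 425 and 408 CPM in Leydig-like cells of TOs and 388 and 140 CPM in those of testes, and their part in the result was not tested.

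**Figure D4:**
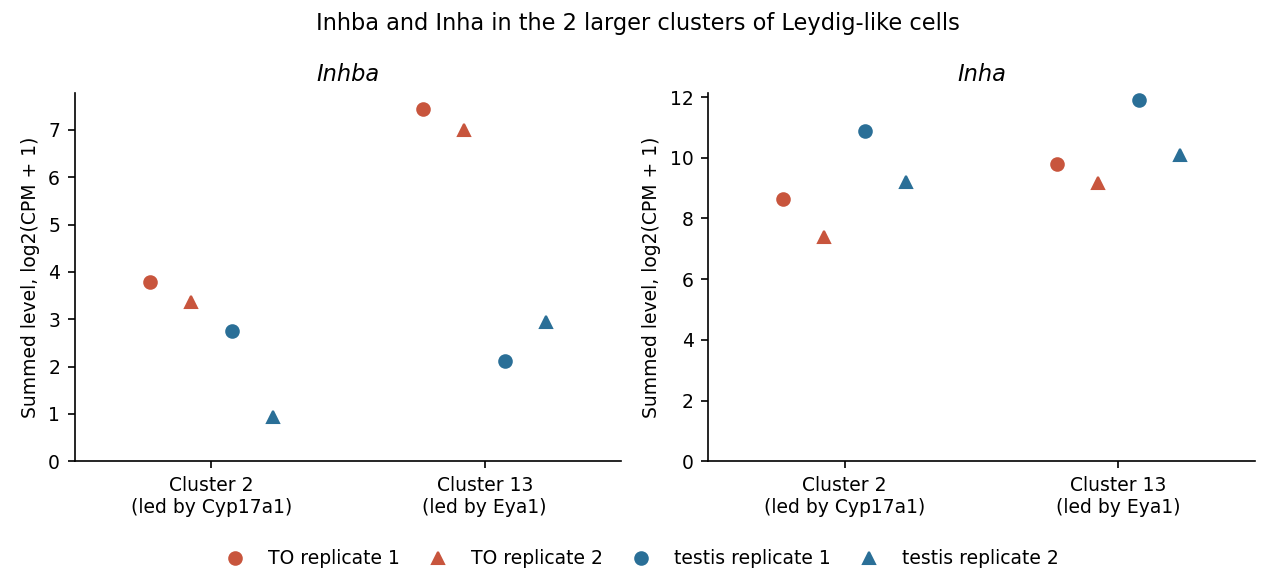
Level of Inhba (left) and Inha (right) as log2(CPM + 1) in the 2 larger clusters of Leydig-like cells, per library (TOs in red, testes in blue). In cluster 13, Inhba was 173 and 126 CPM in TOs with 1 UMI in each testis library, and Inha was lower in both TO libraries than in both testes in each cluster.

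Inha had lower values in Leydig-like cells of both TO libraries, also within clusters 2 and 13. Its levels were 469 and 251 CPM in TOs and 2029 and 606 CPM in testes, so that the groups did not overlap but the testes differed from each other more than the TOs did. The log2 fold change of -1.93 (SE 0.575) had an adjusted p of 0.049 in edgeR and missed the threshold. It was -0.80 (adjusted p = 0.24) without testis replicate 1 and -2.53 (adjusted p = 0.0086, past the threshold) without testis replicate 2, and DESeq2 called it as well (-1.87, adjusted p = 0.0024). In cluster 2, Inha was 398 and 165 CPM in TOs and 1869 and 584 CPM in testes, and in cluster 13 it was 879 and 578 CPM against 3795 and 1090 CPM. The Leydig marker Cyp17a1, an enzyme of androgen synthesis, varied between the same libraries, with 1164 and 81.7 CPM in TOs and 3808 and 11060 CPM in testes. Insl3, a peptide hormone of mature Leydig cells, had 2264 and 150 CPM in TOs and 3336 and 1734 CPM in testes.

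The number of Inha UMIs for each Amhr2 UMI was higher in Leydig-like than in Sertoli-like cells of each library. For each Amhr2 UMI there were 2.38 and 1.92 Inha UMIs in Leydig-like cells of TOs and 10.0 and 3.18 in those of testes, against 1.01, 0.594, 0.909 and 0.760 in Sertoli-like cells in the same order. Macrophage-like cells had ratios of 0.940, 0.615, 0.786 and 0.571, near those of Sertoli-like cells of the same library. A direct test of the 2 cell types against each other found no gene of the 6 whose change in Sertoli-like cells differed from that in Leydig-like cells past the adjusted p of 0.01, where 6.04% of 16283 genes differed. The test could not decide for Amh (-3.82, SE 3.49), with 1 UMI in Leydig-like cells of TO replicate 1 and 0 in the other libraries. Nor could it for Inhba (3.05, SE 2.70), with 0 UMIs in Sertoli-like cells of both testes. The change of Inha was higher in Sertoli-like than in Leydig-like cells by 1.01 on the log2 scale (SE 0.364, adjusted p = 0.092, edgeR). Amhr2 differed by -0.30 (SE 0.293, adjusted p = 0.54), and Fshr by -1.14 (SE 0.614, adjusted p = 0.26), with only 37 Fshr UMIs in Leydig-like cells of TOs and 4 in those of testes.

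Inhba was also higher in peritubular myoid-like cells, the contractile cells around the tubules. It had 57.3 and 43.4 CPM in TOs and 9.70 and 6.18 CPM in testes (18 and 9 UMIs), and both TO libraries were more than 4 times above the higher testis library. The log2 fold change was 2.63 (SE 0.325) with an adjusted p of 0.00034 in edgeR. Inhba was the only gene of the 4 tested that passed in this type, where 24.5% of all genes passed, 4.31% higher and 20.2% lower in TOs. The ratio of the sums was 6.14 (95% counting interval 4.199 to 9.36). Removing any 1 library kept the call, and 13 of 15 alternatives did. It was lost without doublet removal (2.25, adjusted p = 0.020) and with background RNA subtracted (1.98, adjusted p = 0.22). In TOs, the cells of this type also carried more transcripts of the 5 stromal markers, 4214 and 6054 CPM against 1753 and 1645 CPM in testes, and fewer of the 5 myoid markers, 11410 and 7990 CPM against 17978 and 18204 CPM. The part of stromal transcripts in the Inhba result was not tested.

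In stromal-like cells, where Inhba was highest, it had 61.1 and 57.2 CPM in TOs and 49.2 and 36.5 CPM in testes (log2 fold change 0.55, SE 0.243, adjusted p = 0.13, edgeR). Both TO libraries were above both testes by a margin smaller than that in myoid-like cells. Inhbb in the same cells had 14.1 and 8.99 CPM in TOs and 2.85 and 3.103 CPM in testes (4 UMIs in each), with a log2 fold change of 2.04 (SE 0.494) and an adjusted p of 0.023, which missed the threshold. None of the 4 tested genes passed it in stromal-like cells, against 17.6% of all genes (1.9% higher and 15.7% lower in TOs). In Leydig-like cells, Inhbb was too low to be tested, with 85 and 16 UMIs in TOs (4.66 and 0.854 CPM) and 3 and 0 in testes (0.834 and 0 CPM), so that TO replicate 2 was near testis replicate 1.

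Amhr2 and Inha were found at low levels in the other tested types. In macrophage-like cells, Amhr2 had 33.8 and 11.6 CPM in TOs and 19.5 and 11.2 CPM in testes, and Inha had 31.8 and 7.16 CPM in TOs and 15.3 and 6.41 CPM in testes. TO replicate 1 was the highest library for both genes, as it was for the Sertoli markers. The same library was highest in peritubular myoid-like cells, where Amhr2 had 52.7 and 14.0 CPM in TOs and 12.4 and 10.3 CPM in testes, and in stromal-like cells, with 60.6 and 16.9 CPM in TOs and 18.5 and 10.9 CPM in testes. Sertoli markers added up to 1021 and 351 CPM in myoid-like cells of TOs and 310 and 243 CPM in those of testes, and to 1233 and 413 CPM and 375 and 213 CPM in stromal-like cells. In macrophage-like, spermatogonia-like and spermatocyte-like cells, 0 of the tested genes passed the threshold, where 19.3%, 13.0% and 39.5% of all genes did. Those higher in TOs were 3.06%, 0.808% and 13.9% of all genes in the same order, and those lower 16.3%, 12.2% and 25.6%. In spermatocyte-like cells, for example, Inha had 43.4 and 10.9 CPM in TOs and 7.99 and 5.52 CPM in testes (log2 fold change 1.73, SE 0.564, adjusted p = 0.021, edgeR). Without TO replicate 2, Amhr2 and Inha passed the threshold in myoid-like, stromal-like, spermatogonia-like and spermatocyte-like cells. Without TO replicate 1, Inha turned to negative values in macrophage-like, myoid-like, stromal-like and spermatogonia-like cells, and neither gene passed.

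Other genes of the same pathways were read from lists, whose counts stand beside the 29.7% of all tested genes that passed in Sertoli-like cells (9.06% higher and 20.7% lower in TOs). With background RNA subtracted in testes, edgeR called 1 gene of 12502 in these cells, a lower one (4502 at an unadjusted p below 0.05). The calls of higher genes in the lists below were thus all lost under that alternative, and at most 1 of the lower calls was kept. In Sertoli-like cells, 3 of 11 tested genes among activin receptors, SMADs and antagonists were higher in TOs and 1 was lower, with a median log2 fold change of 0.64 against 0.02 over all genes. The higher ones were Fst (log2 fold change 3.43, adjusted p = 0.00024), Bambi (2.15, 0.0020) and Fstl3 (1.17, 0.0018) in edgeR. Fst and Fstl3 encode follistatins, which bind activins, and BAMBI is a receptor without a kinase domain that dampens signaling of the family. Fst had 36.2 and 45.9 CPM in TOs and 4.66 and 2.96 CPM in testes. The lower one was Tgfbr3l (-2.66, adjusted p = 0.0014), a co-receptor for inhibin B, with 1.75 and 2.15 CPM in TOs and 14.0 and 11.8 CPM in testes.

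Of the 10 tested AMH and bone morphogenetic protein receptors, SMADs and targets, Acvr1, a type I receptor, was higher in TOs (log2 fold change 1.26, adjusted p = 0.0020, edgeR) and Smad6, an inhibitory SMAD, was lower (-3.83, adjusted p = 0.0017). The other 8 did not pass, and the median was 0.54. Among 13 tested genes of the FSH and cAMP pathway, 1 was higher and 2 were lower, with a median of 0.27, a share of calls below the 29.7% of all genes. Prkar2b, a regulatory subunit of protein kinase A, had 106 and 110 CPM in TOs and 28.4 and 34.8 CPM in testes (adjusted p = 0.00024). The cAMP-degrading phosphodiesterase genes Pde4a (-3.79, adjusted p = 0.00061) and Pde4b (-2.15, adjusted p = 0.00047) were lower in TOs. Pde4b had 17.8 and 11.3 CPM in TOs and 64.1 and 75.5 CPM in testes.

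Of 12 tested transcription factors known to act on Amh, Inha or Fshr, 3 were higher in TOs and 0 were lower (median 0.36). Of all genes, 29.7% were called, 9.06% higher and 20.7% lower in TOs. Zfpm2, which encodes a cofactor of GATA4, had 189 and 212 CPM in TOs and 4.66 and 2.96 CPM in testes (log2 fold change 5.72, adjusted p = 1.3e-05, edgeR). Sox9, an activator of Amh, had 481 and 569 CPM in TOs and 217 and 265 CPM in testes (1.22, adjusted p = 0.0022), while Amh itself had lower values. Sox9 was also a naming marker of Sertoli-like cells. Usf1, which encodes an E-box binding factor, had 184 and 219 CPM in TOs and 82.0 and 118 CPM in testes (adjusted p = 0.0059, edgeR). Whether it acts on the E-box of the Fshr promoter in these cells was not tested.

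Genes of Sertoli cell maturation gave no common direction. Of 8 genes of mature Sertoli cells, all tested, 1 passed, namely Rhox5, an androgen-responsive homeobox gene, which was lower in TOs (-5.81, adjusted p = 3.0e-05, edgeR; 6.67 and 2.82 CPM in TOs, 338 and 256 CPM in testes). The median of the list was 0.03. Of 6 genes of immature or cycling Sertoli cells, 3 could be tested, and Top2a, a gene of dividing cells, was lower in TOs (-2.42, adjusted p = 0.00089). Top2a is also a gene of dividing germ cells, and all 8 genes of the spermatid list were lower in Sertoli-like cells of TOs. Among other ligands of the family, 4 of 14 were tested. Tgfb2 had 52.6 and 41.5 CPM in TOs and 0.389 and 0 CPM in testes (adjusted p = 4.5e-05), and Tgfb3 had 51.3 and 47.3 CPM in TOs and 24.9 and 24.4 CPM in testes (adjusted p = 0.0027). Tgfb1 was lower in TOs, with 19.2 and 18.3 CPM against 50.5 and 46.6 CPM (-1.29, adjusted p = 0.0014).

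**Figure D5:**
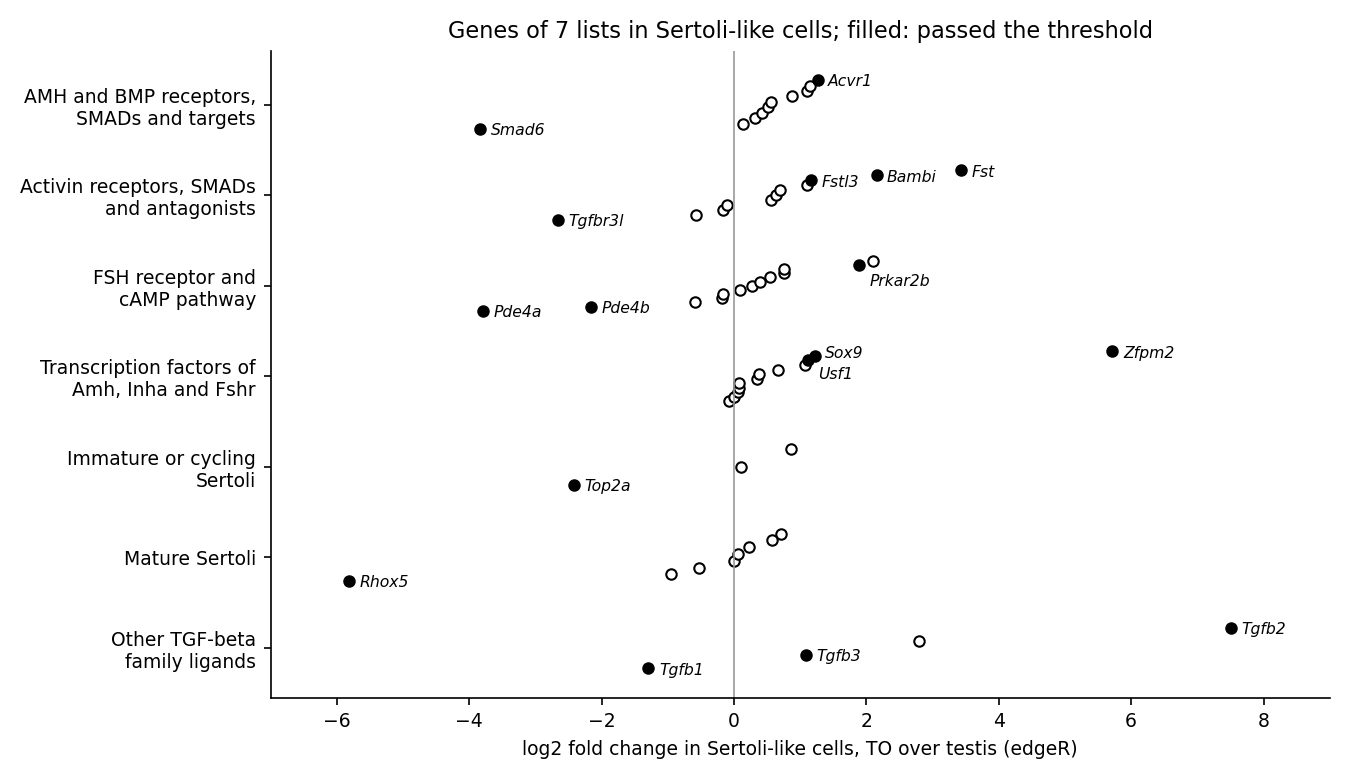
Log2 fold change of TOs over testes in Sertoli-like cells (edgeR) for the tested genes of 7 lists, 1 row per list, with filled and named points for genes past the threshold. In the activin list 3 genes were higher and Tgfbr3l was lower, and in the mature Sertoli list only Rhox5 was past the threshold.

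In Leydig-like and peritubular myoid-like cells, where Inhba passed, the activin list had 1 of 12 and 3 of 11 tested genes higher in TOs and 0 lower, where 2.05% and 4.31% of all genes were higher and 12.2% and 20.2% lower. With background RNA subtracted, edgeR called 0 genes in either type (2999 and 2165 at an unadjusted p below 0.05), and with genes of any count 0 in Leydig-like cells (6929), so that the calls below were lost there. The Leydig gene was Smad3, a mediator of activin signaling (2.41, adjusted p = 0.0082, edgeR), and the myoid genes were Smad2, another mediator (1.27, adjusted p = 0.0042), the inhibitory Smad7 (1.40, adjusted p = 0.0023) and Tgfbr3 (1.18, adjusted p = 0.0033), which encodes betaglycan, a co-receptor for inhibin. In the AMH and bone morphogenetic protein list, Bmpr2 was higher in Leydig-like cells, with 36.7 and 34.5 CPM in TOs and 5.00 and 2.36 CPM in testes (3.19, adjusted p = 0.0014). In myoid-like cells, 3 of 12 were higher, all targets of this pathway: Id1 (adjusted p = 5.7e-05), Id2 (adjusted p = 0.0011) and Id3 (2.48, adjusted p = 0.00046). Id1 had 893 and 680 CPM in TOs and 91.1 and 111 CPM in testes. In stromal-like cells, 1 gene of the lists apart from the spermatid list passed, Id2 (1.76, adjusted p = 0.0027).

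Across 36 sums of 1 library and 1 cell type, the genes whose levels ran most like those of each gene were named by Pearson's r of log2(CPM + 1), over 11141 genes with at least 50 CPM in any sum. This is a description, since the sums share libraries, depth and naming markers. For Fshr they were Gpr55 (0.960), Dmrta1, Cytip, Btnl10 and Sept14, and for Amh Tsx (0.858), Gm648, Btnl10, Defb45 and Wfdc10. For Amhr2 they were Gstm7 (0.940), Slc7a4, Adora1, Sdsl and Etnk2. Inha had Defb19 (0.939), which is itself a naming marker, Serpina5, Rarres1, Folr1 and Kif21a, and Inhbb had Reep1 (0.925), Slc27a6, the naming marker Cst12, Shc2 and Gpr37. For Inhba they were Osr1 (0.941), B130024G19Rik, Prrx1, C1s2 and Col5a2. Among the 6 genes, Amhr2 and Inha had an r of 0.893, Inhbb and Fshr 0.839 and Amh and Fshr 0.811, while Inhba had -0.241 to 0.194 with the other 5.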

How the data were processed

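Libraries of TOs (n = 2) and testes (n = 2) were made with the 10x Genomics Chromium 3' v3.1 kit. The authors deposited raw UMI counts per gene and barcode, made with Cell Ranger 7.1.0 on mm10 per the submitters' processing notes; use of intronic reads is not given in the sources used here. The 6 genes and all lists were chosen with earlier results of these data known. Barcodes with the highest Scrublet scores (0.8% per 1000 barcodes; the paper names another caller) were removed, as were cells outside 1000 to 5000 genes, above 20000 UMIs or above 10% mitochondrial UMIs. After scaling to 10000 UMIs, 2000 variable genes without the 6 genes and 30 principal components were joined with Harmony (rewritten here; theta 2, sigma 0.1, lambda 1) and clustered with Leiden (20 neighbours, resolution 1) into 36 clusters. A cluster took a type name if at least 3 markers were in at least 10% of its cells, so any departure from the study may lie in the naming. Markers did not bear out the endothelial name in either TO library, nor the spermatid name in TO replicate 1, while it held in TO replicate 2. No cell was named mesothelial, so 7 of 10 types were tested.

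UMIs were summed per library and type, since cells are not replicates, and tested with edgeR's quasi-likelihood test (TMM, filterByExpr) calling genes whose log2 fold change exceeded 1 in size with a p under 0.01 after Benjamini-Hochberg adjustment, with DESeq2 as an alternative. Named genes were the 6, list genes past the threshold (at most 6 per list and direction) and the 5 most alike by Pearson's r. Shares used cells thinned to 3000 UMIs (1500 as an alternative), with exact binomial intervals and exact permutation tests; in Sertoli-like cells 109 to 168 cells per library were shallower and left out. A count of 0 was bounded by 3 counts. Intervals and floors cover counting error only. Alternatives changed normalization, filters, doublets, Harmony, cell assignment, background RNA, libraries and the replicate block, and restricting types to 1 cluster was added after seeing the data. Steps were tested on simulated data. Promoters came from a RefSeq table, which held Amhr2, Inha, Inhba, Inhbb and Fshr. Software was R 4.3.3, edgeR 4.0.16, DESeq2 1.42.0, Python 3.11.15, Scanpy 1.11.5, leidenalg 0.10.2, NumPy 2.4.6, SciPy 1.17.1, pandas 2.3.3, scikit-learn 1.9.0 and matplotlib 3.10.9.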

Additional observations from a re-analysis of the deposited data

Results flagged for a closer look

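Cells of the cluster named endothelial were left out of the comparisons, because 1 of 5 endothelial markers was detected in those of TOs and Pecam1 was at 0. In these cells Amhr2 had 334 and 322 CPM in TO replicates 1 and 2 (66 and 79 cells), against 7.62 and 5.07 CPM in the testes (132 and 87 cells). They are given as a signal in cells outside the comparisons that lay above the level of the control testes. Inha had 74.0 and 15.7 CPM in the same cells of TOs, against 6.09 and 3.38 CPM in testes. For each Amhr2 UMI there were 0.221 and 0.0489 Inha UMIs in these TO cells, below the ratios of Sertoli-like cells in the same libraries. The 5 mesothelial markers added up to 182 and 237 CPM in them and to 0 CPM in both testes, the 8 Sertoli markers to 3103 and 1934 CPM in TOs and 506 and 386 CPM in testes. What these cells are was not tested.

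Inha is given for the same reason in cells of the clusters named spermatid, where it had 296 and 44.6 CPM in TOs (140 and 85 cells) and 14.3 and 5.14 CPM in testes. In TO replicate 1, 0 of 7 spermatid markers were detected in these cells and Sertoli markers added up to 5890 CPM, while in TO replicate 2, 4 markers were detected and Sertoli markers added up to 497 CPM.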

How the results depend on the processing

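Of 348 alternative values of the log2 fold changes of the 6 genes by cell type, 302 kept direction and side of the threshold, 24 passed it newly, 7 no longer passed it and 15 turned sign, none of them past it. The cause of these changes was not tested.

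In Sertoli-like cells, where 0 of the 6 genes and 4311 genes in all were called, 1 of the 6 was called with genes of any count and 0 to 1 with 1 library left out. All genes called were 1 with background RNA subtracted in testes (4502 at an unadjusted p below 0.05) and 1059 in the largest testis cluster only, an alternative chosen after seeing the data, and 2891 to 3855 with 1 library left out. In Leydig-like cells, where 1 of the 6 and 2197 genes were called, DESeq2 called 2 of the 6. It was 0 of the 6 with library sizes without spermatid genes, genes of any count, genes from other cells left out, background subtracted or the largest testis cluster only, and 1 to 2 with 1 library left out. All genes called were 0 with genes of any count (6929 unadjusted), 280 without genes from other cells, 0 with background subtracted (2999 unadjusted) and 1421 to 1880 with 1 library left out, the lowest without testis replicate 1. In macrophage-like cells (2087 genes called), they were 3137 with any count and 0 with background subtracted (1256 unadjusted) and 1536 to 2157 without 1 library. In peritubular myoid-like cells (1 of the 6 and 3805 called), 0 of the 6 were called with background subtracted and 1 to 3 with 1 library left out, and all genes called were 2222 with any count, 0 with background subtracted (2165 unadjusted), 2227 without doublet removal and 1919 to 3960 without 1 library. In stromal-like cells (0 and 2744), 2 of the 6 were called with any count and 0 to 2 without 1 library, and all genes called were 4914 with any count, 0 with background subtracted (1731 unadjusted) and 1463 to 2797 without 1 library. In spermatogonia-like cells (0 and 1796), 1 of the 6 was called with any count, 1 with each cell assigned by its own markers and 0 to 2 without 1 library, with 1063 genes in all without genes from other cells and 1114 to 2033 without 1 library. In spermatocyte-like cells (0 and 5380), 2 of the 6 were called with any count and 0 to 2 without 1 library, with 2967 to 6185 genes in all without 1 library.

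Signs turned for Inhbb in Sertoli-like cells (0.05 as reported), to -0.036 without TMM, -0.26 without spermatid genes, -0.42 with background subtracted, -0.24 without Harmony, -0.13 with each cell assigned by its own markers and from -0.029 (without testis replicate 1) to 0.11 with 1 library left out. In the largest testis cluster, which holds 30 shallow cells of testis replicate 2, Amhr2 and Fshr turned to 0.030 and 0.18. Inha in macrophage-like cells turned to -1.06 without doublet removal, and Inhba in stromal-like cells to -0.19 with background subtracted. With 1 library left out, the lowest value without TO replicate 1 and the highest without TO replicate 2, Inha ranged from -0.37 to 1.75 in macrophage-like, -0.41 to 1.504 in peritubular myoid-like, -0.45 to 1.35 in stromal-like and -0.12 to 1.38 in spermatogonia-like cells, and Amhr2 from -0.17 to 1.36 in macrophage-like cells. The difference of the Amhr2 change between Sertoli-like and Leydig-like cells ranged from -0.62 (without TO replicate 2) to 0.018 (without TO replicate 1). Of the differences between Sertoli-like and Leydig-like changes, 2 of the 6 passed with any count (Inha 1.00, Inhbb -2.55) and 0 to 1 with 1 library left out (Inhbb, -3.55 without TO replicate 2). With 1 library left out, edgeR pools the spread and the lone library of a group is assumed to vary like the others.

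Pairs of type and gene whose shares did not overlap between the groups were 22 of 42, 16 at 1500 UMIs, 34 without thinning and 24 to 37 with 1 library left out, where 1 group holds a single value. The share over all genes was not computed, so nothing is read from these counts. The difference of cells with both Amh and Fshr was -0.870 percentage points, -3.63 without thinning and -1.93 to 0.191 with 1 library left out.

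The replicate numbers pair no samples in the labels, and with 2 pairs the correlations of the deviations of libraries with the same number were 0.035 to 0.155 across types. With the replicate block, 1 of the 6 genes was called in Sertoli-like cells (Amh, -2.20, adjusted p = 0.00098, edgeR), 2 in peritubular myoid-like, 2 in stromal-like and 1 in spermatogonia-like cells. The alternative without Harmony was not run for peritubular myoid-like cells, with fewer than 10 cells in a library, nor were background subtraction and library sizes without spermatid genes for germ cells. Shares and ratios of Amh rest on 8 to 65 UMIs per library, which limits what the depth can show.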

Other observations

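The Id genes, targets of bone morphogenetic protein signaling through the SMADs that AMH also uses, were higher in TOs in some types beyond the peritubular myoid-like cells. No Id gene passed in Sertoli-like or Leydig-like cells, the tested types with the highest Amhr2 levels. The 1 higher gene of that list was Acvr1 in Sertoli-like cells and Bmpr2 in Leydig-like cells. In macrophage-like cells, 3 of 9 tested genes of the AMH and bone morphogenetic protein list passed, all higher, where 3.06% of all genes were higher, namely Id1 (log2 fold change 4.08, adjusted p = 0.0068, edgeR), Id2 (3.60, adjusted p = 2.8e-05) and Id3 (3.43, adjusted p = 0.0033). With background RNA subtracted in testes, edgeR called 0 genes in these cells (1256 at an unadjusted p below 0.05). Id2 had 361 and 264 CPM in TOs and 36.2 and 20.8 CPM in testes. In spermatogonia-like cells, 2 of 11 passed, against 0.808% of all genes higher, namely Id1 (2.77, adjusted p = 0.00018) and Id3 (2.07, adjusted p = 0.00090). In spermatocyte-like cells, 5 of 11 were higher and 2 were lower, with Id1, Id2, Id3 and the receptors Bmpr1a and Bmpr2 higher and Smad1 and Smad9 lower, where 13.9% of all genes were higher and 25.6% lower. Clu, an abundant Sertoli transcript, was higher in macrophage-like (2.87, adjusted p = 0.0015), spermatogonia-like (2.59, adjusted p = 0.0018) and spermatocyte-like cells (adjusted p = 0.00073) of TOs, where Sertoli marker sums were higher in TO replicate 1 as well. In TO replicates 1 and 2, Id3 had 74.6 and 28.2 CPM in macrophage-like and 87.6 and 26.65 CPM in spermatocyte-like cells. In peritubular myoid-like cells of these libraries it had 2200 and 1948 CPM. Background RNA was not subtracted in TOs, and the part of transcripts from other cells in the Id calls was not tested.

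In Leydig-like cells, the transcription factor Gata4 (255 and 315 CPM in TOs, 101 and 89.3 CPM in testes, adjusted p = 0.0053) and its cofactor gene Zfpm2 (68.7 and 140 CPM in TOs, 9.45 and 7.66 CPM in testes, adjusted p = 0.0012) were higher in TOs in edgeR, as was Bmp2 (2.48, adjusted p = 0.0083), where 2.05% of all genes were higher and where 0 genes were called with background subtracted (2999 unadjusted). Prkar2b, which was higher in Sertoli-like cells of TOs, was lower in Leydig-like cells of TOs (-2.01, adjusted p = 0.0019), with 14.8 and 20.9 CPM in TOs and 70.0 and 66.3 CPM in testes. The difference between the cell types was not tested for this gene.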
